A study of Mus musculus with 281 samples.

Results

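The 4 azurophil granule serine proteases were described in single bone marrow cells of C57BL/6 mice: Elane (neutrophil elastase), Prtn3 (proteinase 3), Ctsg (cathepsin G) and Prss57 (a trypsin-fold protease that cuts after arginine). They were named as a set and looked up by symbol, and all 4 were found among the 43280 symbols of the deposited table. The table held TPM values (transcript levels relative to transcript length and to each cell's total) from SMART-seq2, a full-length cDNA method, with 1 cell per sample. Cells carried 1 of 6 labels. The 47 CMP cells (common myeloid progenitor gate) were lineage-negative, c-Kit+, Sca-1- and CD34+ with low CD16/32. The same gate with high CD16/32 held 45 Ly6C-GMP cells and 95 + 10 Ly6C+GMP cells in 2 sets of titles, granulocyte-monocyte progenitors without and with surface Ly6C. The 22 proneu cells came from the Ly6C+GMP gate, except 1 that had no gate in the labels. The labels did not say whether proneu was assigned by sort or from transcripts, so high granule genes may be part of that label. The 31 preNeu cells were sorted as Gr1+, CD11b+, CD115-, SiglecF-, c-Kit+ and CXCR4+, and the 31 tpMo cells as CD115+, c-Kit-, CXCR4+ and Ly6C+. All cells shared the strain and tissue, and the labels gave no treatment, age, sex or animal. The series as a whole examined how heterogeneous granulocyte-monocyte progenitors are. Each label therefore counts as 1 sample here: SDs are over cells, and no test or p-value was computed.

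Azurophil, or primary, granules form early in neutrophil development, before the secondary granules, and their contents are made in a narrow window of maturation. The serine proteases are synthesised as inactive precursors, trimmed by the dipeptidyl peptidase encoded by Ctsc, and stored on the proteoglycan serglycin (Srgn) beside myeloperoxidase (Mpo). Serpins such as Serpinb1a inhibit any active enzyme that escapes into the cytosol. Monocyte progenitors also make the same enzymes for a time.

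In GRCm38 coordinates (GENCODE M21), 3 of the 4 genes lay in 1 stretch of chromosome 10. Prss57 (ENSMUSG00000020323.14) spanned 79781474 to 79790961 on the minus strand, Prtn3 (ENSMUSG00000057729.12) 79874476 to 79883174 on the plus strand, and Elane (ENSMUSG00000020125.7) 79886247 to 79888215 on the plus strand. Prtn3 and Elane were 3073 bases apart, and Prss57 and Prtn3 83515 bases. Ctsg (ENSMUSG00000040314.2) lay on chromosome 14, from 56099881 to 56102574 on the minus strand, among mast cell protease and granzyme genes. No stretch of 31 bases was shared between transcripts of any pair of members. Prss57 overlapped Fstl3 on the opposite strand, and the annotated Prtn3 gene overlapped Plppr3. The kit does not mark strand, so reads from such overlaps cannot be told apart.

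The promoters are shown because the 3 most abundant members rose and fell together over the labels although they lie on 2 chromosomes. Each line gives the 250 bases before the RefSeq start site on the gene's own strand (RefSeq, GRCm38.p6), at chr10:79886062-79886311 for Elane, chr10:79879417-79879666 for Prtn3 and chr14:56102575-56102824 (minus strand) for Ctsg. Windows of 3 of the 4 members were matched; Prss57 was not. Capitals mark every match, on either strand, to the letters searched: GGAAGT (read by ETS factors such as PU.1), AACGG (MYB), GCAAT (a C/EBP core), TGTGGT (RUNX) and TATAA (the TATA box).
Elane: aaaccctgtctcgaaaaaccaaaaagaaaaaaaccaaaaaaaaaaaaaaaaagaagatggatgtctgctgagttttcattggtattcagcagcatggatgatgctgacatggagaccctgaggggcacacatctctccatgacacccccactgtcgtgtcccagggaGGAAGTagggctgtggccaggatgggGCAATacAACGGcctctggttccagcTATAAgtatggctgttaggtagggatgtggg
Prtn3: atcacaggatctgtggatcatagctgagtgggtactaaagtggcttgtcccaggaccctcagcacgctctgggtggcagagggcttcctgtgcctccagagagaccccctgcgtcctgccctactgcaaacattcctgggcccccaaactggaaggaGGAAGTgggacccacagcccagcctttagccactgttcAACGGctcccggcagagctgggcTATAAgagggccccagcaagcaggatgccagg
Ctsg: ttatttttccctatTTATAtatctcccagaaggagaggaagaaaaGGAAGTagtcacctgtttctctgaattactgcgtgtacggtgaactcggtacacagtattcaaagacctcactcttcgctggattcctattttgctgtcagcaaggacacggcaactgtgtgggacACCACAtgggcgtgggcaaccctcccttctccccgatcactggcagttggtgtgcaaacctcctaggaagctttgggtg

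GGAAGT was found in all 3 windows, at -83 in Elane, -93 in Prtn3 and -205 in Ctsg, counted back from the start site to the first base of the match. AACGG followed at -50 in Elane and -55 in Prtn3. TATAA stood at -31 in Elane and -32 in Prtn3, so these neighbouring genes carried the same 3 motifs in the same order at like distances. Elane also had GCAAT at -57. The Ctsg window held none of these last 3 in the direction of transcription. It had TGTGGT on the other strand at -79, printed ACCACA, and TATAA on the other strand at -236, printed TTATA. No match overlapped another. Of 32851 windows of the same length, 19.7% held GGAAGT, 14.5% AACGG, 23.1% GCAAT, 14% TGTGGT and 22.8% TATAA, and 3.19% held both GGAAGT and AACGG. In GENCODE M21 the Elane gene began inside the printed window and an alternative Prtn3 model began before it. The matches describe letters, not bound sites.

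All 4 proteases followed the same order of labels at the top: proneu was highest, then Ly6C+GMP, then Ly6C-GMP. Elane was the most abundant. Its TPM was 43959 ± 8062 (SD, n = 22 cells) in proneu, with a lowest cell of 29840, a median of 43018 and a highest of 57868. In Ly6C+GMP it was 28036 ± 14467 (n = 95 + 10), from 87.1 through a median of 25488 to 61284. In Ly6C-GMP it was 16018 ± 12133 (n = 45), from 23.2 through 15559 to 47568. No proneu cell was low, and none of the 10 Ly6C+GMP cells of the smaller set of titles was (lowest 26932 TPM). The larger Ly6C+GMP set and Ly6C-GMP each contained cells near the bottom of the scale. Outside these labels the mean hid a skew. CMP had a mean of 1488 ± 4333 (n = 47) but a median of 36, with a lowest cell at 0 and a highest at 21323. tpMo had 2405 ± 4969 (n = 31), from 16.2 through a median of 532 to 25159. preNeu had 809 ± 3141 (n = 31), from 7.81 through a median of 28.6 to 17243, and its mean without the highest cell was 262.

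Prtn3 had a narrower range. Its mean TPM (SD over the same cells) was 6634 ± 1398 in proneu (lowest 4113, median 6508, highest 10036), 5468 ± 1882 in Ly6C+GMP (1065, 5170.5 and 10992) and 3866 ± 1920 in Ly6C-GMP (2.00, 4088 and 10266). CMP cells reached 1113 ± 1377 (0, 638 and 4557), so that the CMP median of Prtn3 was above that of Elane. In tpMo it was 650.5 ± 944 (3.47, 275 and 4049), and in preNeu 140 ± 243 (0, 12.3 and 905). All proneu cells exceeded all preNeu and tpMo cells in Prtn3.

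Ctsg resembled Prtn3 in the progenitors and separated from it afterwards. Its mean TPM was 7675 ± 2323 in proneu (lowest 3685, median 7779, highest 12126), 5655 ± 2292 in Ly6C+GMP (822, 5185 and 11988), 5032 ± 2657 in Ly6C-GMP (6.20, 4792 and 13536) and 947 ± 1464 in CMP (0, 398 and 6658). In tpMo it was 596 ± 992 (0, 17 and 3259). In preNeu it was 3.85 ± 3.78 (0, 2.87 and 15.2), and this was the only label in which no cell exceeded 15.2 TPM. Prss57 was the least abundant member wherever all 4 were high. It had 857 ± 380 TPM in proneu (lowest 136, median 840, highest 1553), 541 ± 432 in Ly6C+GMP (0, 447 and 1695), 331 ± 364 in Ly6C-GMP (0, 236 and 1447) and 68.9 ± 152 in CMP (0, 0.72 and 566). More than a few Prss57 transcripts were rare in the later labels, at 40.6 ± 126 TPM in preNeu (0, 0 and 668) and 21.3 ± 79.3 in tpMo (0, 0 and 330).

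**Figure D1:**
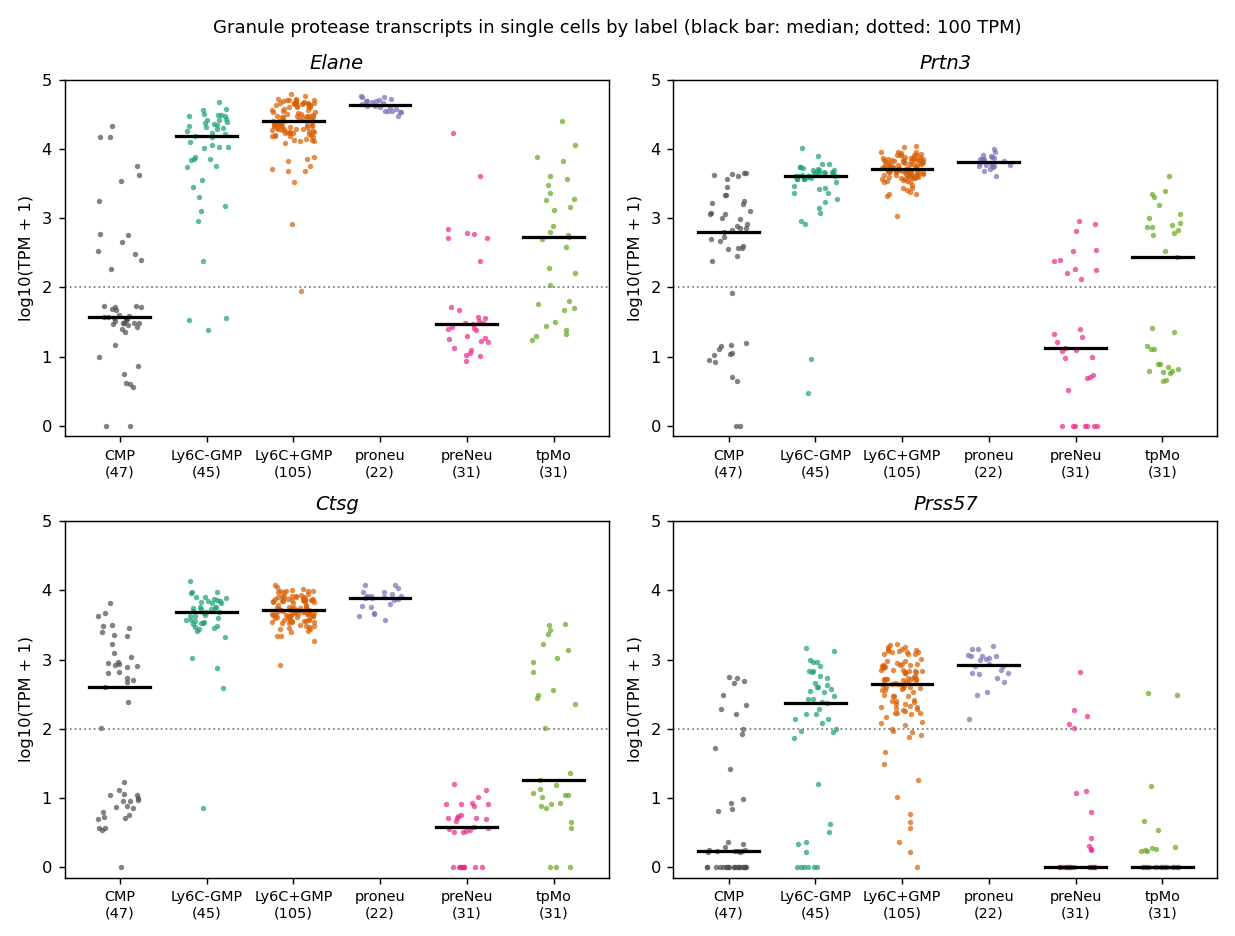
TPM of each protease in every cell on a log10(TPM + 1) axis, by label, with the number of cells below each label, the median as a black bar and 100 TPM as a dotted line. The 22 proneu cells form a tight group at the top in all 4 panels, while CMP, preNeu and tpMo cells spread over wide ranges and all preNeu cells lie at or below 15.2 TPM for Ctsg.

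Neighbours in the order of medians overlapped in most cases. For each member, the range from the lower to the upper quartile of proneu overlapped that of Ly6C+GMP, and that of Ly6C+GMP overlapped Ly6C-GMP. A break came next. For Elane, the Ly6C-GMP quartiles (5600 to 24193 TPM) lay above those of tpMo (53.2 to 2127). For Prtn3 and Ctsg the same break separated Ly6C-GMP from CMP, with lower quartiles of 2756 and 3328 TPM in Ly6C-GMP against upper quartiles of 1447 and 1004 in CMP. Below it, tpMo, CMP and preNeu overlapped for Elane, Prtn3 and Prss57. For Ctsg the tpMo quartiles (7.38 to 782) lay above those of preNeu (0 to 5.74). Prss57 showed no break between neighbours.

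A limit of 1 TPM did not separate cells for Elane. It was at 1 TPM or more in 45 of 47 CMP cells and in every cell of the other 5 labels. The lowest values of Elane and Mpo had a floor. Among the preNeu and tpMo cells the 10th percentile of Elane was 15.2 TPM, or 0.0972% of the mean of the cells with neighbouring sample titles. The 10th percentile of Mpo was 17.4 TPM, or 0.107%. The other members had no such floor in these cells, with 10th percentiles of 0.235 TPM (0.00928%) for Prtn3 and 0 for Ctsg and Prss57. In CMP the 10th percentile of Elane differed between the sets of titles, at 25.7 TPM over 31 cells and 1.33 TPM over 16. Where these low values come from was not tested. At 100 TPM some members had a gap between cells and others had none. No CMP cell had Elane between 53.9 and 184 TPM, and no preNeu cell between 50.5 and 241. For Ctsg no CMP cell lay between 16.2 and 101.96 TPM. Other cells sat close to the limit: the tpMo cells nearest to it had 62 and 106.6 TPM of Elane, and the Prss57 cells just below it had 99.9 TPM in CMP, 99.3 in Ly6C-GMP and 97.1 in Ly6C+GMP.

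At 100 TPM, Elane was present in 14 of 47 CMP cells (29.8%, exact Clopper-Pearson 95% interval 17.3 to 44.9), 42 of 45 Ly6C-GMP cells, all but 1 of the Ly6C+GMP cells, all 22 proneu cells, 8 of 31 preNeu cells and 21 of 31 tpMo cells. Prtn3 was present in 33 of 47 CMP and 43 of 45 Ly6C-GMP cells, in every Ly6C+GMP and proneu cell, in 11 of 31 preNeu cells and in 16 of 31 tpMo cells. Ctsg was present in 26 of 47 CMP and 44 of 45 Ly6C-GMP cells, in every Ly6C+GMP and proneu cell, in 0 of 31 preNeu cells and in 14 of 31 tpMo cells. These 3 were thus present in nearly all GMP cells. Prss57 was present in fewer: 8 of 47 CMP, 29 of 45 Ly6C-GMP, 90 of the Ly6C+GMP, 22 of 22 proneu, 5 of 31 preNeu and 2 of 31 tpMo cells. All 4 members were present at this limit in every proneu cell, and also in all 10 Ly6C+GMP cells of the smaller set of titles. Intervals of shares cover counting error only.

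The CMP cells showed a nested order. At 100 TPM, 14 of the 47 cells had no member, 5 had Prtn3 alone and 10 had Prtn3 with Ctsg. A further 10 had Prtn3, Ctsg and Elane, and 4 had all members. The remaining 4 cells combined Prss57 with Prtn3, with Ctsg in 2 of them, and lacked Elane. No cell had Elane without Prtn3, while 19 had Prtn3 without Elane. No cell had Elane without Ctsg, while 12 had Ctsg without Elane. No cell had Ctsg without Prtn3, while 7 had Prtn3 without Ctsg. The order Prtn3, Ctsg, Elane therefore described all CMP cells at this limit, and every one of the 14 cells with Elane had both others.

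Both sets of CMP titles gave this order, with 13 cells against 0 and 6 cells against 0 for Prtn3 without Elane against Elane without Prtn3. The order depended on the limit. At 1 TPM the counts were 2 against 2 and at 10 TPM 5 against 5. The sets of titles went opposite ways at 10 TPM: 0 cells had Prtn3 without Elane and 5 had Elane without Prtn3 among the 31 cells of the larger set, and 5 and 0 among the 16 of the smaller. With each limit set at 1% or 10% of that gene's own proneu median, a choice made after seeing the data, the counts were 24 against 0 and 19 against 0. These cells were caught at 1 moment each, so the order is one of co-occurrence and not of time in a single cell. The level of each member in CMP cells also went with the number of genes detected. The Spearman correlations were 0.47 for Elane, 0.64 for Prtn3, 0.68 for Ctsg and 0.29 for Prss57 over 47 cells. The part of detection depth in the order was not tested.

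**Figure D2:**
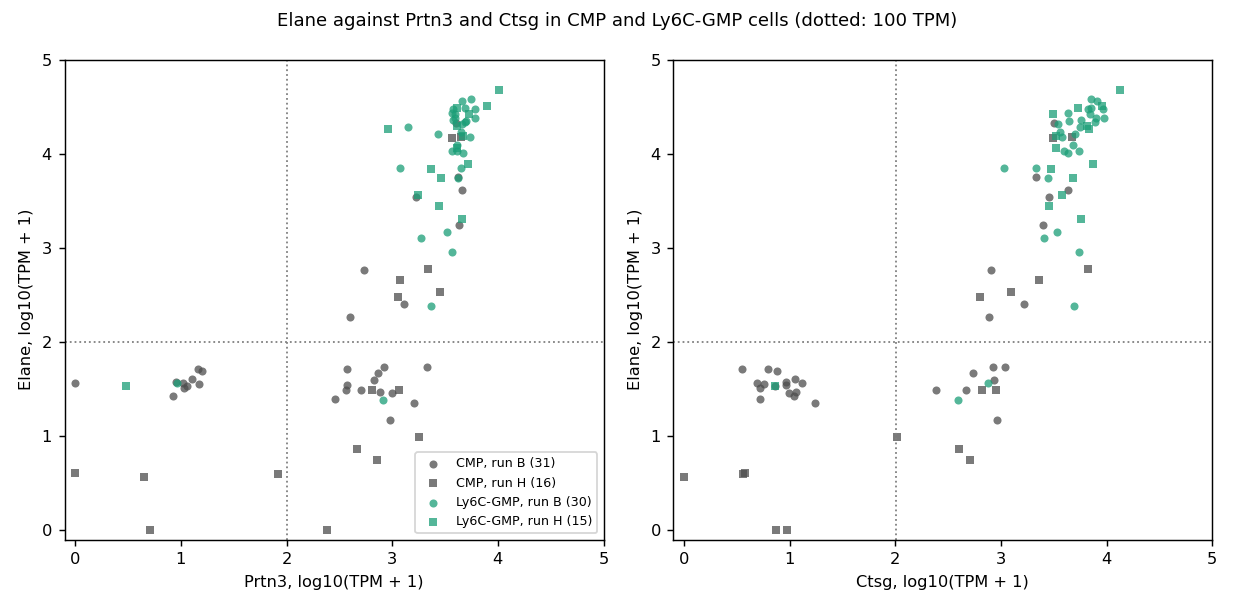
Elane against Prtn3 (left) and against Ctsg (right) on log10(TPM + 1) axes in CMP and Ly6C-GMP cells, 1 point per cell, with squares and circles for the 2 sets of sample titles and dotted lines at 100 TPM. The upper left field is empty in both panels and the lower right field holds 19 CMP cells for Prtn3 and 12 for Ctsg.

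Myeloperoxidase, the main enzyme of the same granules, was ahead of Elane in the CMP cells as well. At 100 TPM, 19 cells had Mpo without Elane and 0 had Elane without Mpo, whereas Mpo and Prtn3 crossed evenly with 2 cells each way. The later labels gave no single order. In tpMo, 11 cells had Elane without Mpo and 0 the reverse, whereas 8 had Mpo without Prss57 and 0 the reverse. In preNeu, 8 cells had Prtn3 without Mpo and 0 the reverse, whereas 3 had Mpo without Ctsg and 0 the reverse. At 10 TPM the preNeu count for Prtn3 turned round, with 13 cells having Mpo without Prtn3 and 0 the reverse.

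The make-up of the protease pool changed with its size. Among cells whose 4 members summed to at least 100 TPM, the median share of Elane was 6.04% in CMP (33 cells), 63.5% in Ly6C-GMP (44), 70.4% in Ly6C+GMP (all cells) and 74.2% in proneu (22). Prtn3 went the other way, with medians of 50.4%, 15.9%, 13.8% and 10.6%. Ctsg had 33.1%, 20.7%, 14.1% and 12.1%. Prss57 stayed small, at 0.0617%, 1.01%, 1.17% and 1.45%. Prtn3 was the leading member in 19 of the 33 CMP cells, Ctsg in 9 and Elane in 5, whereas Elane led in 35 of 44 Ly6C-GMP cells, all but 3 Ly6C+GMP cells and all 22 proneu cells. The members together made up a median of 0.132% of all TPM in a CMP cell, 2.43% in a Ly6C-GMP cell, 3.55% in a Ly6C+GMP cell and 5.66% in a proneu cell.

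Within a label, cells with a larger Prtn3 and Ctsg sum also had a larger Elane share. The Spearman correlation of the Elane share with that sum, which does not contain Elane, was 0.50 in CMP, 0.37 in Ly6C-GMP and 0.24 in Ly6C+GMP. The share also followed the number of genes detected in CMP (0.60), and its correlation with that number was 0.07 in Ly6C-GMP and -0.10 in Ly6C+GMP. The part of detection depth in the CMP value was not tested. These are descriptions over cells that share a gate. In the later labels the pool differed again. The 12 preNeu cells above the limit had medians of 56.6% Elane, 29.3% Prtn3 and 0.238% Ctsg, and the 22 tpMo cells 68.9%, 15.9% and 9.34%.

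**Figure D3:**
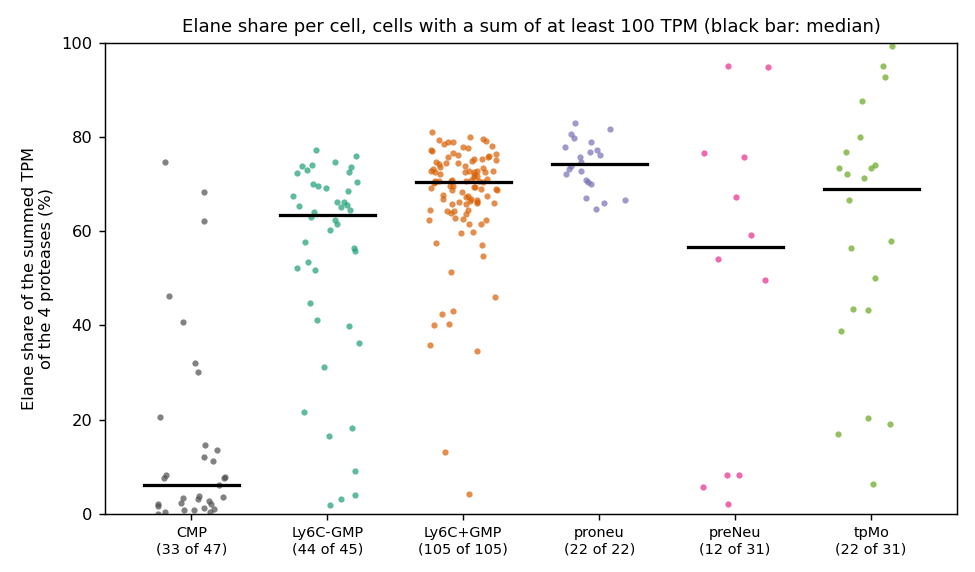
Share of Elane in the summed TPM of the 4 proteases, in percent, per cell and by label, for cells with a sum of at least 100 TPM; black bars are medians. CMP cells lie mostly near the bottom with a median of 6.04%, Ly6C-GMP cells spread widely, and proneu cells form a narrow band around 74.2%.

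The first comparison asked what the step from CMP to Ly6C-GMP brought. The difference of mean log2(TPM + 1) was 6.71 for Elane, 5.06 for Ctsg, 4.0 for Prss57 and 3.41 for Prtn3. All 4 members passed the threshold of 1 log2 unit used throughout to call a gene higher or lower, as did 15.6% of the 12582 genes compared, while 1.29% were called lower. The median over all genes was 0.19. Elane ranked 2 from the top, Ctsg 7, Prss57 15 and Prtn3 32. Prtn3, the member with the highest median in CMP, differed least, and Elane most. The ranges of the cells overlapped for all 4. Within each set of titles that held both labels the 4 values were 6.33, 5.54, 3.75 and 3.73 (20.5% of genes higher), and 7.46, 4.13, 4.50 and 2.78 (18.4%), for Elane, Ctsg, Prss57 and Prtn3.

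From Ly6C-GMP to Ly6C+GMP the members moved little by comparison. Prss57 was higher by 1.86 and Elane by 1.55 log2 units, and Prtn3 (0.92) and Ctsg (0.45) stayed below the threshold. Thus 2 of 4 were called higher, beside 9.87% of 12399 genes, with a median of 0.12 over all genes. The Ly6C+GMP label combined 95 cells of 1 set of titles with 10 of another, and the sets differed in these genes. Elane averaged 26517 ± 14142 TPM in the 95 cells and 42464 ± 8616 in the 10, and Prss57 493 ± 400 and 993 ± 487. With the 95 cells alone the differences were 1.46, 0.87, 0.38 and 1.70 for Elane, Prtn3, Ctsg and Prss57, with 10.1% of genes higher. With the 10 cells alone they were 2.43, 1.38, 1.04 and 3.35, and all 4 passed, beside 16.7% of genes. Neither set shared titles with the Ly6C-GMP cells, so set and label cannot be told apart here.

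Between proneu and Ly6C+GMP the outcome turned on the same split. Over all cells, Prss57 was higher in proneu by 1.32 log2 units, Elane by 0.94, Ctsg by 0.50 and Prtn3 by 0.34. Thus 1 of 4 was called higher, beside 2.2% of 12026 genes. Of all genes 15.9% were lower, and the median over all genes was -0.23. The 21 proneu cells and 10 Ly6C+GMP cells with neighbouring titles gave 0.07 for Elane, -0.12 for Prtn3, -0.13 for Ctsg and -0.05 for Prss57. None of the 4 was called there, beside 5.49% of genes higher and 21.2% lower. The median over all genes was -0.27, so each member lay above it. In that set Elane averaged 44343 ± 8053 TPM in proneu and 42464 ± 8616 in Ly6C+GMP, a gap smaller than either SD.

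All 4 members were lower in preNeu than in proneu. Ctsg was lower in preNeu by the most of all 10991 genes compared, at -11.05 log2 units. Elane ranked 4 from the bottom at -9.54, Prtn3 7 at -8.32 and Prss57 8 at -7.89. All 4 were called lower, as were 39.8% of genes (3.58% were higher), and the median over all genes was -0.68. The cells of the 2 labels did not overlap for Elane, Prtn3 and Ctsg, and overlapped for Prss57. The share of all genes without such overlap is not given here, so this describes the members only. As ratios of mean TPM, preNeu retained 0.0184 of the proneu level of Elane, 0.0211 of Prtn3, 0.0474 of Prss57 and 0.000502 of Ctsg. For Elane and Prss57 1 cell carried much of these means: without the highest preNeu cell the mean was 262 in place of 809 TPM for Elane and 19.7 in place of 40.6 for Prss57. The preNeu cells had a median of 2373 genes detected against 4204 in proneu. Their secondary granule genes summed to a median of 240274 TPM, and all genes of a cell share 1 fixed TPM total. The part of either in the differences was not tested. With cells rescaled by the median ratio of 547 widely detected genes, every member kept its call. The median factors were 1.54 in preNeu and 0.814 in proneu, too close to change a call at differences of this size.

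The residual transcripts of preNeu were uneven between members. At 100 TPM, 19 of 31 cells had no member, 4 had Elane, Prtn3 and Prss57, and 3 had Elane and Prtn3. Prtn3 stood alone in 3, with Prss57 in 1, and Elane alone in 1. No preNeu cell had Ctsg at this limit, an upper bound of 11.2% of cells by the exact 95% interval. The cell with the highest Elane, 17243 TPM, had 905 TPM of Prtn3 but 2.21 of Ctsg and 5.35 of Prss57, and 79818 TPM of the secondary granule gene Ngp. Elane and Prtn3 ranked together over the 31 cells (Spearman 0.59), while Ctsg did not follow Elane (0.11) or Prtn3 (-0.04). Prtn3 also followed the number of genes detected (0.75).

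The tpMo cells, the monocyte-directed label, also had less of each protease than Ly6C+GMP. The differences were -5.77 for Elane, -5.69 for Prtn3, -6.47 for Ctsg and -7.29 for Prss57, all called lower beside 32.9% of 12057 genes (3.19% were higher), with a median of -0.50 over all genes. Against the 10 Ly6C+GMP cells with neighbouring titles they were -6.65, -6.15, -7.06 and -8.77, beside 36.9% of genes. Residual expression was a matter of individual cells: at 100 TPM, 10 of 31 cells had Elane, Prtn3 and Ctsg, 2 had all 4, and 9 had none. The cell with the highest Elane also had 4049 TPM of Prtn3, 3259 of Ctsg, 330 of Prss57 and 25347 of Mpo.

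Compared directly, tpMo exceeded preNeu in 3 of 4 members, beside 26.3% of 10826 genes higher. The differences were 4.08 for Ctsg, 2.83 for Elane and 2.29 for Prtn3, and -0.71 for Prss57, which was not called, beside 4.53% of genes lower. The ranges of the cells overlapped for every member. Ctsg in tpMo was 155 times the preNeu mean. Of the 8 preNeu cells with Elane at 100 TPM, 0 had Ctsg and 4 had Prss57, whereas 13 of the 21 tpMo cells with Elane had Ctsg and 2 had Prss57. Over the 31 tpMo cells Elane, Prtn3 and Ctsg ranked together (Spearman 0.76 to 0.79), and each went against Lyz2, a lysozyme gene high in monocytes that was picked after its values were seen (-0.74, -0.84 and -0.72). They also followed the number of genes detected (0.65 to 0.69), and Lyz2 went against it (-0.68). The part of depth in these relations was not tested.

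**Figure D4:**
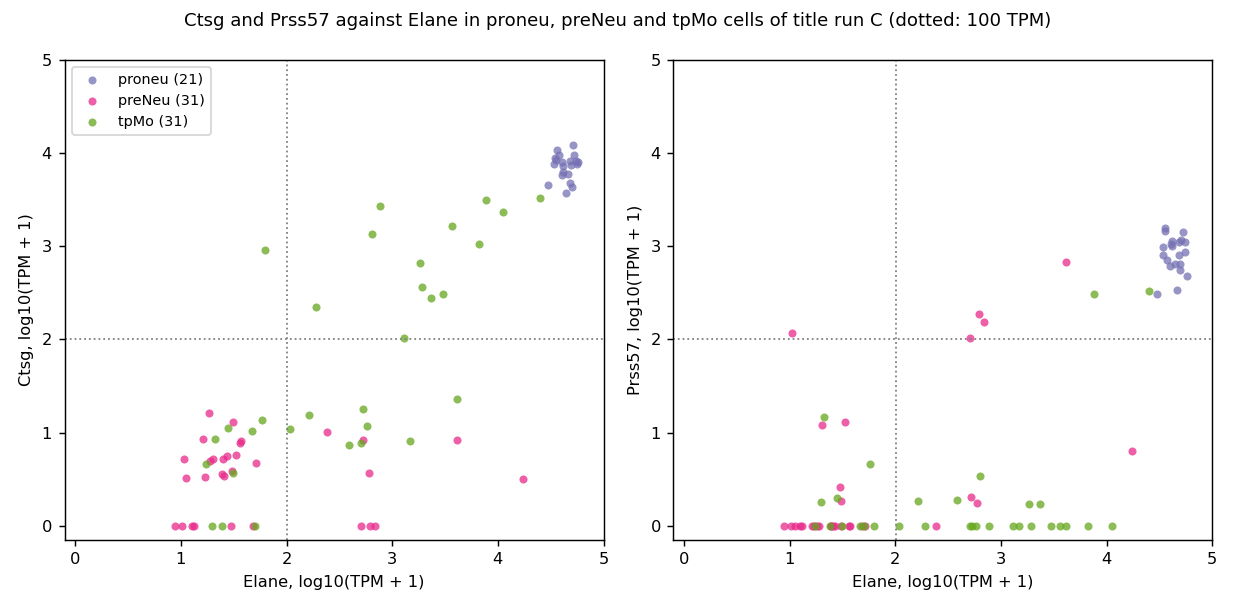
Ctsg (left) and Prss57 (right) against Elane on log10(TPM + 1) axes in the proneu, preNeu and tpMo cells that share neighbouring sample titles, 1 point per cell, with dotted lines at 100 TPM. All 31 preNeu points lie below the Ctsg line, 14 of 31 tpMo points lie above it, and 21 proneu points stand apart at the upper right.

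Correlations between members over cells are given as descriptions, since the cells share a gate and a detection depth. Over all cells of the series the 6 pairs had Spearman values of 0.78 to 0.90, which mostly restate the differences between labels. Within Ly6C+GMP they were 0.61 to 0.74 over all its cells, where the number of genes detected was nearly unrelated to the members (0.02 to 0.11). Within Ly6C-GMP they were 0.42 to 0.69. Within CMP the values were 0.86 for Prtn3 with Ctsg, 0.68 for Elane with Ctsg and 0.59 for Elane with Prtn3. Their order differed between the sets of CMP titles, with 0.81, 0.56 and 0.46 over 31 cells and 0.88, 0.92 and 0.89 over 16. Within proneu, where every cell had all members, the 6 values ran from -0.06 to 0.36 over 22 cells. Over the 21 proneu cells with neighbouring titles they ran from -0.0026 to 0.56, with Ctsg and Prss57 the highest pair. The spread of Elane was small in the 22 cells (coefficient of variation 18.3%), and that of Prtn3 (21.1%), Ctsg (30.3%) and Prss57 (44.3%) was larger.

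Most genes around the members had low correlations with them, and Fstl3 had the highest. Within 100 kb of Elane, the 11 non-member genes that reached 1 TPM in some label had a median Spearman correlation with Elane of 0.07 over all cells and a highest of 0.37. Cfd, a granule-type protease gene 2638 bases from Elane, had means of 0.96 TPM in CMP and 2.72 in Ly6C+GMP and was at 0 in the other 4 labels. Around Ctsg, 8 of the 9 neighbouring genes, all mast cell proteases and granzymes, were at 0 in all labels. The exception was Mcpt8, a basophil protease, with means of 18.7 TPM over CMP, 78.2 over Ly6C-GMP, 10.5 over Ly6C+GMP, 100.6 over proneu, 2.44 over preNeu and 6.71 over tpMo cells. The median correlations of non-member neighbours were 0.11 around Prtn3 and 0.14 around Prss57. Fstl3, which overlaps Prss57, correlated with it at 0.61. With Prtn3, 91846 bases away, Fstl3 correlated at 0.50.

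The genes most like the members were found by rank correlation. Over all cells and 8964 genes, the closest to Elane were Mpo (Spearman 0.90), Prtn3 (0.90), Ms4a3 (0.89), Ctsg (0.88) and the glutathione S-transferase gene Gstm1 (0.84). Mpo and Ms4a3 were also among the 5 closest to Prtn3, Ctsg and Prss57. The order changed within the 95 Ly6C+GMP cells of 1 set of titles. There Elane was closest to Nkg7 (0.84), a membrane protein of cytotoxic and myeloid granules, then Srgn (0.82), Ms4a3 (0.76), Cd63 (0.75) and Mpo (0.74). Nkg7 and Srgn also stood among the 5 closest to Prtn3 (0.63 and 0.70), Ctsg (0.78 and 0.78) and Prss57 (0.69 and 0.69).

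The monocyte markers, a list of 8 genes, had opposite signs in the 95 Ly6C+GMP cells and in the CMP cells. These cells shared no titles, so gate and set cannot be told apart here. The part of detection depth in the change was not tested. In the 95 Ly6C+GMP cells all 8 correlated negatively with each member. For Elane the median was -0.53 and the range -0.70 to -0.19, and for Prtn3, Ctsg and Prss57 the medians were -0.39, -0.47 and -0.37. Irf8, a transcription factor of the monocyte and dendritic lines, was at -0.65 with Elane and -0.64 with Ctsg, and F13a1, a coagulation factor gene of monocytes, at -0.70 and -0.65. In the CMP cells the 6 markers detected widely enough all correlated positively with each member, with medians of 0.53 for Elane, 0.52 for Prtn3, 0.60 for Ctsg and 0.26 for Prss57. Irf8 was at 0.56 with Elane and 0.67 with Ctsg there. Irf8 and F13a1 were singled out after their values were seen. The share of all genes with the same signs is not given here, so the signs are not shown to be particular to this list.

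The positive values in CMP held in both sets of titles for Irf8 with Elane, at 0.57 over 31 cells and 0.65 over 16. Irf8 itself followed the number of genes detected in CMP (0.37) and went weakly against it in the 95 Ly6C+GMP cells (-0.13). The erythroid and megakaryocyte markers went against the members in CMP: all 6 measured genes were negative with Elane (median -0.19), Prtn3 (-0.43) and Ctsg (-0.50), and 5 of 6 with Prss57. For these too the share of all genes with a negative value is not given. In the 95 Ly6C+GMP cells the neutrophil factors Gfi1 and Cebpe correlated positively with Elane (0.56 and 0.57), though Gfi1 was present in 19 cells only.

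The genes listed for activation, packing and sorting of the proteases did not move as 1 group. The list was broader than these roles, since it also held G6pc3, described below. Of the 13 listed genes, 7 were called higher and 0 lower from CMP to Ly6C-GMP, with a median difference of 1.14. Beside them 15.6% of genes were higher and 1.29% lower. From proneu to preNeu 0 were called higher and 9 of 13 lower (median -1.88), beside 3.58% of genes higher and 39.8% lower. The median over all genes was -0.68. From Ly6C+GMP to tpMo 1 was called higher and 8 of 13 lower (median -1.64), beside 3.19% of genes higher and 32.9% lower. The median over all genes was -0.50. Srgn, the packing proteoglycan, went with the proteases. It had 1535 ± 1015 TPM in the CMP cells, 2650 ± 1557 in the Ly6C-GMP cells, 2973 ± 1732 in the Ly6C+GMP cells and 4874 ± 1770 in the proneu cells, but 18.1 ± 85.7 in the preNeu cells and 267 ± 608 in the tpMo cells.

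Ctsc, whose enzyme activates all of these proteases, did not go with them. The CMP cells had 62.2 ± 113 TPM of it, the Ly6C-GMP cells 99.97 ± 137, the Ly6C+GMP cells 178 ± 175, the proneu cells 20.01 ± 55.01, the preNeu cells 1.22 ± 1.83 and the tpMo cells 843 ± 474. It was highest in tpMo, where the proteases were low. It was lower by 4.38 log2 units in proneu than in Ly6C+GMP over all cells, and among cells with neighbouring titles the difference was -1.15 (20.96 ± 56.2 TPM against 42.2 ± 65.5). G6pc3, a glucose-6-phosphatase gene mutated in congenital neutropenia, was lower in preNeu than in proneu by 6.41 log2 units (0.433 ± 0.944 against 351 ± 312 TPM).

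Inhibitors split as well. Of 17 listed genes, 7 to 10 reached 1 TPM in a label of a given comparison. From proneu to preNeu 0 of the 7 measured were called higher and 4 lower, beside 3.58% of genes higher and 39.8% lower. Serpinb1a, the cytosolic inhibitor of elastase, proteinase 3 and cathepsin G, had 226 ± 230 TPM in the CMP cells, 379 ± 280.6 in the Ly6C-GMP cells, 730 ± 456 in the Ly6C+GMP cells, 1238 ± 560 in the proneu cells, 1499 ± 795 in the preNeu cells and 260 ± 360 in the tpMo cells. Its preNeu mean was within 1 SD of the proneu mean, while the transcripts of its targets were low in preNeu. Cst7, which encodes an inhibitor of the Ctsc enzyme, instead had 1121 ± 597 TPM in proneu and 12.6 ± 66.8 in preNeu. Slpi, an inhibitor of elastase and cathepsin G, had 152 ± 159 TPM in Ly6C+GMP and 55.3 ± 78.9 in proneu, but 60.3 ± 50.3 and 56.02 ± 80.8 in the cells of these labels with neighbouring titles. The 5 Serpina1 genes, which encode the plasma antitrypsins made in liver, were at 0 in all labels.

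**Figure D5:**
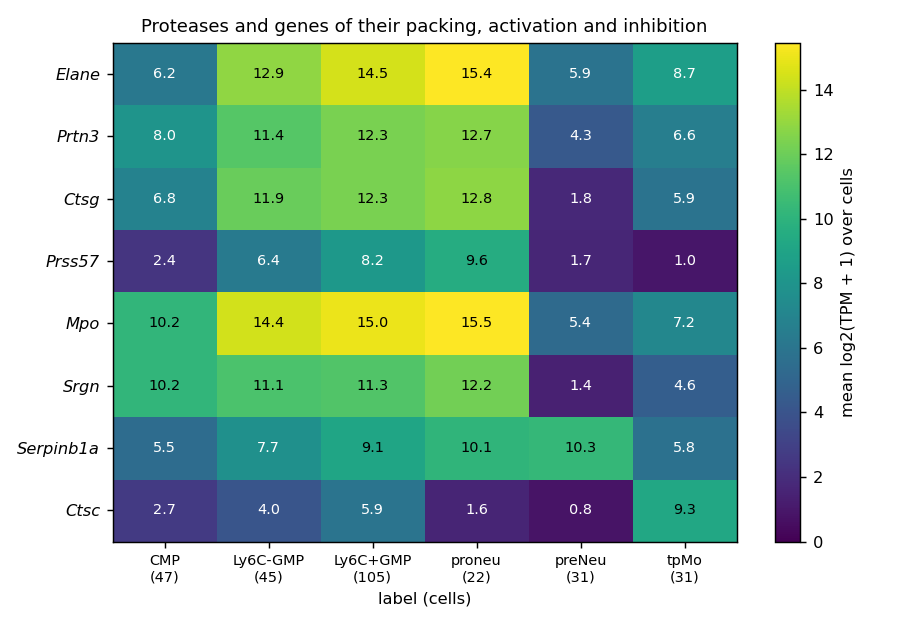
Mean log2(TPM + 1) over cells for the 4 proteases, Mpo, Srgn, Serpinb1a and Ctsc in the 6 labels, with the number of cells below each label and the value written in each tile. Srgn and Mpo follow the proteases, Serpinb1a remains high in preNeu, and Ctsc is highest in tpMo and low in proneu.

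Of 13 other listed contents of azurophil granules, 11 were measured in each comparison up to proneu. From CMP to Ly6C-GMP 9 were called higher and 0 lower, beside 15.6% and 1.29% of all genes. From Ly6C-GMP to Ly6C+GMP 5 were higher and 1 lower, beside 9.87% of genes higher and 1.35% lower. From Ly6C+GMP to proneu 4 were higher and 2 lower, beside 2.2% of genes higher and 15.9% lower. These counts took in both sets of Ly6C+GMP titles. From proneu to preNeu 8 of 12 measured were lower and 2 higher, beside 39.8% of genes lower and 3.58% higher. Mpo was lower by 10.09 log2 units (47923 ± 11301 TPM against 152 ± 514), while Lyz2, lysozyme, which later granules also store, was higher by 7.18 (509 ± 507 against 46321 ± 18862). Of 11 measured among 14 listed transcription factors of granule genes, 3 were lower and 2 higher in that step. Of all genes 39.8% were lower and 3.58% higher. Gfi1, a repressor needed for neutrophil development, was lower by 3.02 and Myb, a progenitor factor, by 4.16, while Cebpe, a driver of secondary granule genes, was higher by 1.77.

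Marker genes fitted the labels in their defining lists, with exceptions in single cells. The secondary granule list summed to between 149125 and 314030 TPM in preNeu cells, and the monocyte list to between 1125 and 9652 in tpMo cells. Erythroid and megakaryocyte markers reached a median sum of 531 TPM in CMP cells, up to 9484, and basophil and mast cell markers up to 6944 in Ly6C-GMP. No 2 cells had identical values. The 4 GMP cells with Elane below 100 TPM, chosen after their values were seen, show what such exceptions were. A Ly6C+GMP cell with 87.1 TPM of Elane had 1065 of Prtn3, 822 of Ctsg, 8393 of Mpo and a secondary granule sum of 75230. A Ly6C-GMP cell with 23.2 TPM of Elane had 813 of Prtn3, 393 of Ctsg, 3215 of Mpo and a secondary granule sum of 72140. In both, Prtn3 and Ctsg thus remained where Elane was low and secondary granule genes were high. Their basophil and mast cell sums were 592 and 596 TPM, and 592 was the highest of any Ly6C+GMP cell. High secondary granule genes did not always go with low Elane: a Ly6C-GMP cell with a secondary granule sum of 11951.5 had 27210 TPM of Elane.

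The other GMP cells below that limit differed from these. A Ly6C-GMP cell with 32.9 TPM of Elane had 2.00 of Prtn3, 6.20 of Ctsg, an erythroid and megakaryocyte sum of 4015 and a secondary granule sum of 17075. A Ly6C-GMP cell with 35.6 TPM of Elane had 8.24 of Prtn3, 753 of Ctsg and 99.3 of Prss57, with a basophil and mast cell sum of 6515 TPM. The last was the only Ly6C-GMP cell with Ctsg but no other member at 100 TPM.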

How the data were processed

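Single mouse bone marrow cells, 1 per sample, were grouped by the cell type label. Per the labels' protocols, cDNA was made by SMART-seq2. The authors deposited 1 table of TPM values, a unit relative to transcript length and library total that keeps no read depth. Column totals ran from 998703 to 1000000. The submitters' processing notes name RSEM 1.2.19 and GRCm38; aligner, annotation and filters were not given in the sources used here.

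Python 3.11.15 with pandas 2.3.3, numpy 2.4.6 and scipy 1.17.1 was used. The effect was the difference between labels of the mean of log2(TPM + 1), which understates the change of low genes; genes averaging 1 TPM or more in 1 of the labels or both were compared, and a difference of at least 1 was called. No animal is named and cells are not replicates, so nothing was tested; SDs and correlations over cells may be technical in part. Runs of consecutive sample titles served as possible batches, though the labels give them no meaning. The difference step was tested on simulated data. The members and gene lists were chosen with earlier results of these data known. The genes named were the members, in each list the up to 3 with the largest difference per comparison and at least 5 TPM, the 5 most alike to each member, and Gzmm, Cfd and Mcpt8; others are marked in the text. Gzmm was near 0. Alternatives were the pseudocount, the low-value filter, scaling, ratios of means, detection limits, title runs and leaving out the highest cell of each label.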

Additional observations from a re-analysis of the deposited data

How the results depend on the processing

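With results taken as the same where a difference moved by less than 1 SD over cells, 68 summary values kept their size and 20 moved; of single-gene values 244 kept it, 70 moved and 2 reversed. The 2 reversals were Prss57 in proneu against Ly6C+GMP, 1.32 over all cells, which was -0.054 among cells with neighbouring titles and -0.17 with the 10 Ly6C+GMP cells of that run against all proneu cells. The members' median there, 0.72, became -0.088 and -0.10. Prtn3 (0.34) and Ctsg (0.50) also changed sign but were not counted as reversed. Among cells with neighbouring titles they were -0.12 and -0.13, while Elane kept its sign at 0.07. As log2 ratios of mean TPM, the members' medians were -5.66 in place of -8.93 for preNeu against proneu and -3.39 in place of -6.12 for tpMo against Ly6C+GMP, since a mean of TPM is carried by the few high cells. The share of cells with all 4 members was 36.2% in CMP at 1 TPM, 55.3% above 0 and 8.51% at 100 TPM; at 100 TPM it was 64.4% in place of 84.4% in Ly6C-GMP and 85.7% in place of 98.1% in Ly6C+GMP, and in preNeu it was 0% at 10 and 100 TPM in place of 19.4%. CMP cells with Elane but not Prtn3 numbered 2 at 1 TPM, 5 at 10 TPM and 0 at 100 TPM and at 1% and 10% of the proneu medians; the reverse numbered 2, 5, 19, 24 and 19. The median of the 6 pair correlations was 0.53 in CMP and 0.82 within the smaller of its title runs, and 0.67 in Ly6C+GMP and 0.58 within its 10 cells of 1 run; the cause was not tested. The proneu-relative limits and a minimum of 2000 genes per cell were chosen after seeing the data. No paired analysis was possible because the titles carry no replicate numbers and no test was made. TPM keeps no depth, so a value of 0 in a single cell sets no upper limit on a transcript there.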
